A study of Mus musculus with 9 samples.

Results

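The genes described here are 40 mitosis genes, which encode the proteins that condense, align, separate and package chromosomes when a cell divides. They were chosen by symbol. Of the 40, 39 had at least 1 probe set annotated to that symbol alone, with 89 probe sets in all, out of 18193 genes and 34945 probe sets annotated to a single symbol. Ccnb1, the gene of cyclin B1, had no such probe set in the annotation used and was not analysed here. All 39 passed the filter on low values that 10937 of the 18193 genes passed. Every member was above the filter's level on all 3 untreated arrays, and 34 were also above it on all 3 day 7 arrays. Plk1, Ttk, Cdc25c, Aurkb and Kif4 needed the untreated arrays to pass, so the filter favoured a lower call for them.

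RNA was measured on Affymetrix mouse expression arrays in mouse thymus cells left after magnetic removal of cells carrying CD45, the surface protein of white blood cells, with several mice pooled for each sample. The mice were female C57BL/6J, 6 to 8 weeks old, and the irradiated mice were given no hematopoietic cells to rescue them. There were 3 groups of 3 arrays: untreated mice, mice 4 days after SL-TBI (sublethal total body irradiation in the usual reading of that abbreviation) and mice 7 days after it, with 550 cGy given from a cesium source. The protocol calls the pooled cells ECs and does not explain the term.

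Mitosis is driven by the kinase CDK1 bound to cyclins A and B. Aurora and polo-like kinases and the kinesin motors then build the spindle, the spindle checkpoint holds the cell until every kinetochore is attached, and the ubiquitin ligase APC/C with CDC20 starts chromosome separation. Most of these genes are transcribed mainly from the end of DNA synthesis until division, so their RNA is low in tissue that does not divide. In the thymus, immature T cells (thymocytes) are the main dividing population, and Cd3d, which encodes a signalling chain of the T cell receptor, and Rag1, part of the enzyme that rearranges T cell receptor genes, mark them.

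All 39 mitosis genes fell at day 4 and were still below untreated at day 7, and 37 of them were higher at day 7 than at day 4. The mean log2 value of the 39 genes was 8.14, 7.49 and 7.97 on the untreated arrays, 3.77, 3.99 and 3.87 on the day 4 arrays, and 6.18, 6.27 and 6.45 on the day 7 arrays. The groups did not overlap, and the day 7 arrays stood between the other two groups. A value under 4 on the log2 scale on all 3 arrays of a group was treated as lying below the detection level there. By that measure all 39 genes were detected on all 3 untreated arrays, 11 on all 3 day 4 arrays and 34 on all 3 day 7 arrays. At day 4, 22 genes were below the level on all 3 arrays and 6 were above it on 1 or 2. At day 7 the 3 genes below it on all 3 arrays were Ttk, Plk1 and Cdc25c, and 2 were above it on 1 or 2 arrays. In RNA from a mixed tissue, fewer cells of a type and less RNA per cell cannot be told apart.

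**Figure D1:**
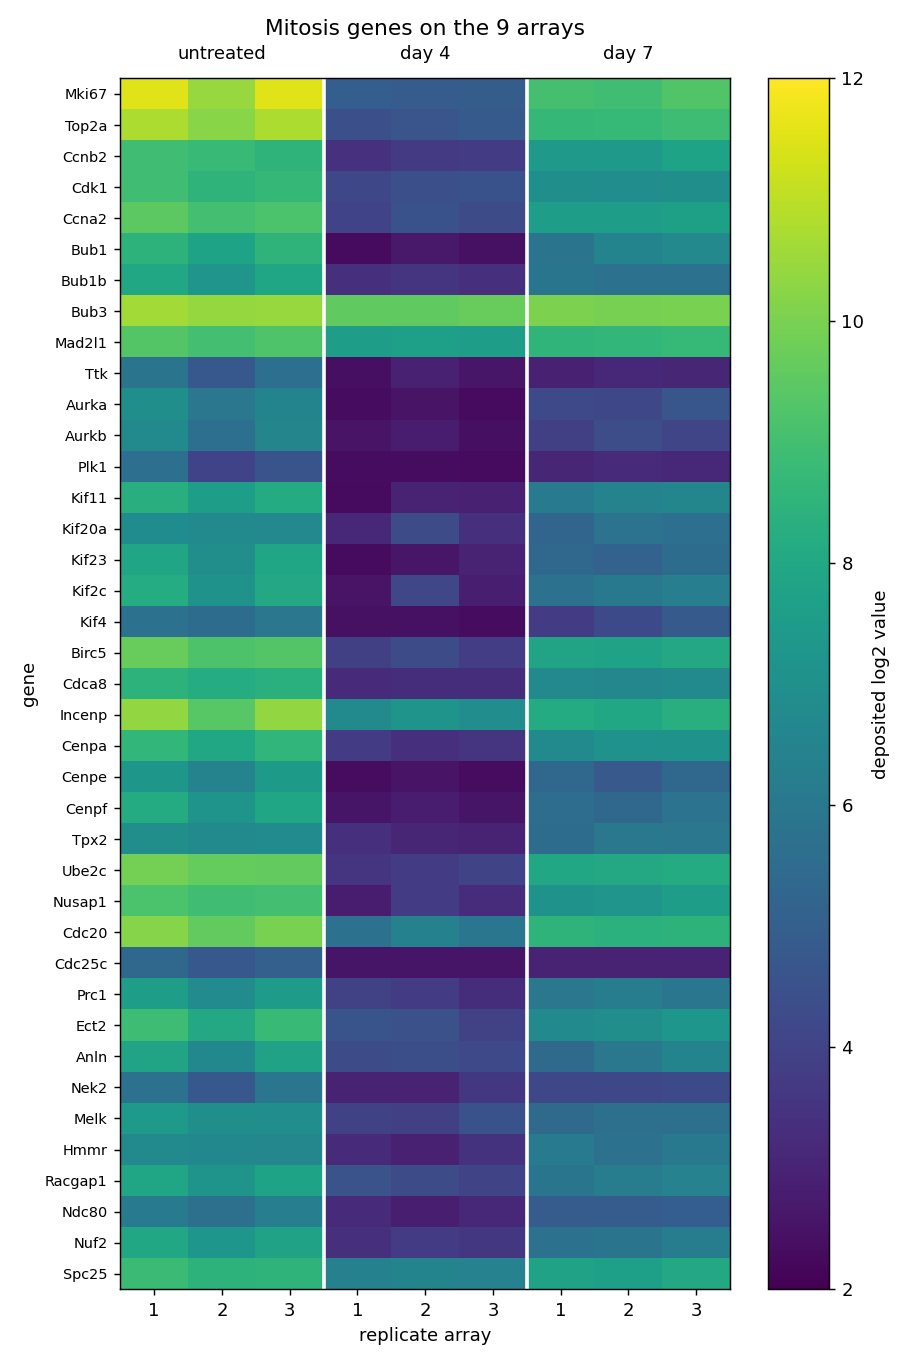
Heat map of the log2 value of each of the 39 mitosis genes (rows, grouped by role) on each of the 9 arrays (columns). The untreated arrays have the highest values, the day 4 arrays the lowest and the day 7 arrays values between them, with array means of the 39 genes of 7.49 to 8.14, 3.77 to 3.99 and 6.18 to 6.45.

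At day 4 against untreated, all 39 genes fell by limma's moderated test with Benjamini-Hochberg adjustment over the 10937 genes, with adjusted p of 2.5e-04 or less, the largest being that of Plk1. Over all tested genes 21.4% were called lower in this comparison and 41.8% higher. Among the 39 are Plk1, Ttk, Cdc25c, Aurkb and Kif4, for which the filter favoured a lower call. The median difference of the members was -4.09 on the log2 scale, against 0.20 over all tested genes, and the differences ran from -6.20 to -0.90. In all 39 the 3 day 4 values lay below the 3 untreated values, an arrangement found for 22.9% of tested genes. For 17 members at least 1 day 4 array was above the detection level, 11 of them on all 3, and for 22 the fall is a lower bound, because all 3 day 4 values lay below it. With day 4 held at that level for those 22 genes the median was -3.31.

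At day 7 against untreated, all 39 genes were again lower, against 22.0% of tested genes called lower and 32.1% called higher. The filter favoured a lower call for the same named genes as at day 4. The median difference was -1.60, against 0.09 over all tested genes, and the range was -2.37 to -0.52, with a largest adjusted p of 0.0065 (limma) for Kif2c. No member's day 7 values overlapped its untreated values, as was so for 24.9% of tested genes in the lower direction. The fitted log2 difference exceeded 1 in size for 38 members at day 4 and for 35 at day 7. Both comparisons use the same untreated arrays.

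At day 7 against day 4 all 39 differences were above 0 and 37 passed the test, against 9.78% of tested genes called higher and 17.6% called lower. The median difference was 2.42, against -0.10 over all tested genes, with a range of 0.38 to 4.31. The exceptions were Plk1, with a difference of 0.81 (adjusted p 0.103, limma), and Ttk, with 0.41 (adjusted p 0.272, limma), and both lay below the detection level in both groups. In 38 members, all but Ttk, the day 7 values lay above the day 4 values, as for 17.9% of tested genes. For 19 members day 4 lay below the detection level and day 7 above it, so their difference is a lower bound, and 3 members were below it at both times. With day 4 held at the level, the median over the other 36 members was 1.95.

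**Figure D2:**
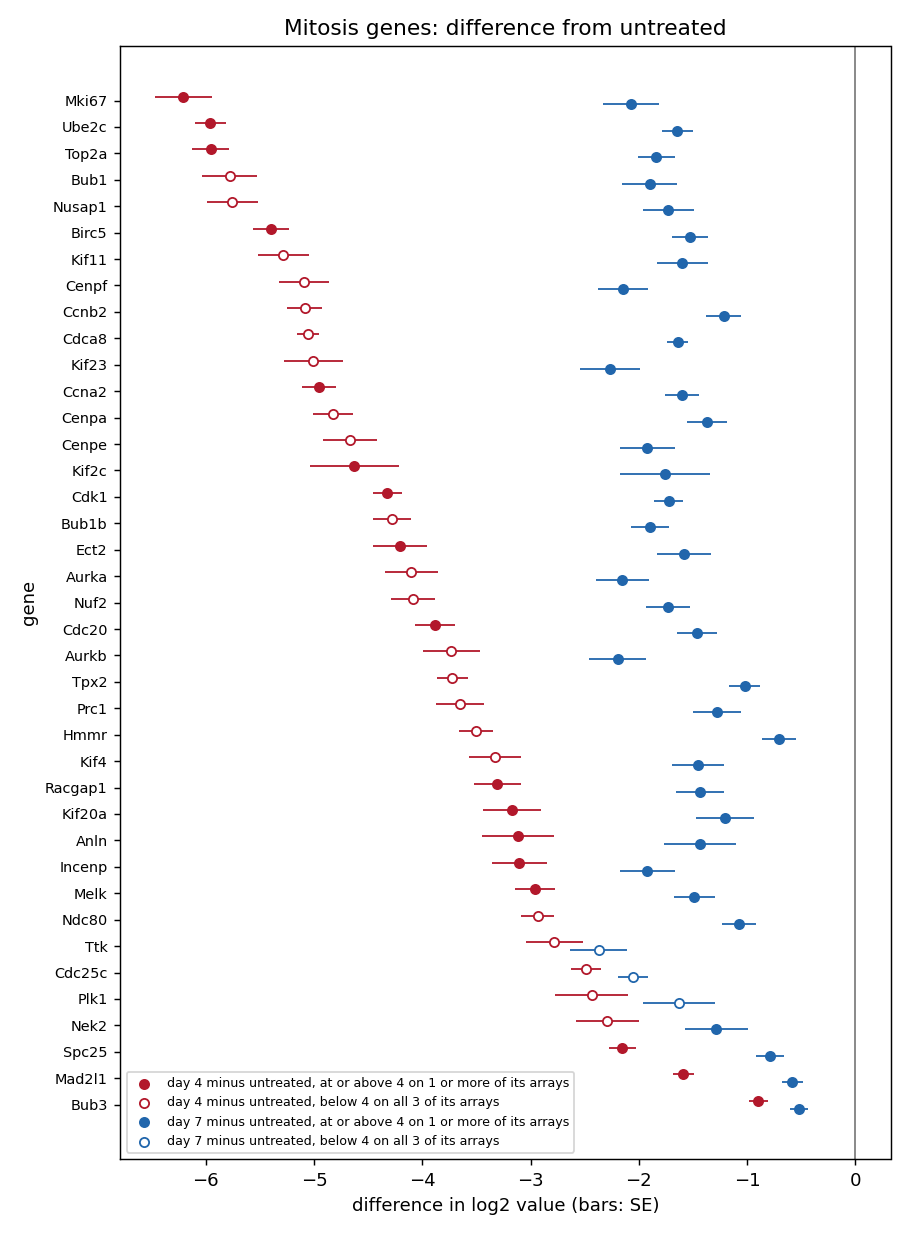
Difference in log2 value of each mitosis gene at day 4 and at day 7 against untreated, with the standard error of the limma model as bars; hollow points mark genes below the detection level on all 3 arrays of that time. All 39 differences are below 0 at both times, and the day 7 points lie nearer to 0, with medians of -4.09 at day 4 and -1.60 at day 7.

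Mki67 and Top2a, the chromosome genes of the set, were among the members with the largest falls. Mki67 encodes the protein that coats mitotic chromosomes and is the standard marker of dividing cells, and Top2a encodes the topoisomerase that untangles sister chromatids. Mki67 had log2 values of 11.53, 10.44 and 11.50 in untreated samples, 4.998, 4.92 and 4.94 at day 4, and 9.04, 8.95 and 9.27 at day 7. Top2a had 10.77, 10.23 and 10.78 in untreated samples, 4.44, 4.63 and 4.84 at day 4, and 8.65, 8.70 and 8.91 at day 7. In both genes the groups did not overlap, and untreated replicate 2 was the lowest of its group. For Mki67 the untreated arrays were widely spread (SD 0.62), and replicate 2 lay about as far from the other untreated arrays as from the day 7 arrays. Mki67 was 73.7-fold lower at day 4 than in untreated samples (log2 difference -6.20, SE 0.26) and 4.20-fold lower at day 7 (-2.07, SE 0.26). Top2a was 61.9-fold lower at day 4 (-5.95, SE 0.17) and 3.57-fold lower at day 7 (-1.84, SE 0.17). Between day 7 and day 4 the difference was 4.13 for Mki67 and 4.11 for Top2a.

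Cdk1 and the cyclins that bind it fell together. Cdk1 had 8.94, 8.49 and 8.65 in untreated samples, 4.15, 4.46 and 4.51 at day 4, and 7.00, 6.92 and 6.99 at day 7. Ccna2, the gene of cyclin A2, which acts in DNA synthesis and at the entry into mitosis, had 9.48, 8.9998 and 9.19 in untreated samples, 4.00, 4.53 and 4.29 at day 4, and 7.60, 7.60 and 7.67 at day 7. For both genes the groups were apart, and the 3 day 7 arrays were within 0.1 of each other. Cdk1 was 20.0-fold lower at day 4 than in untreated samples and 3.31-fold lower at day 7. Ccna2 was 30.9-fold lower at day 4 and 3.03-fold lower at day 7. Ccnb2, the gene of cyclin B2, was below the detection level at day 4 and at least 26.4-fold lower there than in untreated samples, and 2.32-fold lower at day 7. Cdc25c encodes a phosphatase that activates CDK1. Its log2 values were 5.38, 4.76 and 5.05 in untreated samples, 2.57 on each day 4 array and 3.01 on each day 7 array. The tied values lie below the detection level, so the difference of 0.43 between day 7 and day 4 (adjusted p 0.047, limma) compares groups in which Cdc25c was not detected.

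The mitotic kinases included the 2 members that did not pass the test between day 7 and day 4. Aurkb, the kinase of the chromosomal passenger complex, which corrects faulty spindle attachments, had 6.73, 5.66 and 6.53 in untreated samples, 2.52, 2.80 and 2.41 at day 4, and 3.88, 4.36 and 4.10 at day 7. It was at least 4.95-fold lower at day 4 than in untreated samples and 4.58-fold lower at day 7. Aurka, which acts at the spindle poles, had 6.98, 5.97 and 6.52 in untreated samples, 2.35, 2.55 and 2.27 at day 4, and 4.19, 4.16 and 4.66 at day 7. At day 7 Aurka was above the detection level on all 3 arrays and Aurkb on 2 of 3. Plk1, which acts at entry into mitosis and at the spindle poles, had 5.66, 4.00 and 4.59 in untreated samples, 2.32, 2.32 and 2.31 at day 4, and 3.06, 3.18 and 3.13 at day 7. Ttk, the checkpoint kinase also known as MPS1, had 5.86, 4.76 and 5.64 in untreated samples, 2.39, 2.93 and 2.60 at day 4, and 2.93, 3.14 and 3.08 at day 7. Plk1 was at least 1.68-fold lower than in untreated samples at both times and Ttk at least 2.68-fold lower at both times, and their dim untreated signal limits these bounds. Nek2, a kinase of the centrosome, had 5.78, 4.77 and 5.91 in untreated samples, 2.96, 3.01 and 3.61 at day 4, and 4.16, 4.17 and 4.26 at day 7. The sixth, Melk, a kinase abundant in dividing cells, was detected on 1 of the 3 day 4 arrays and was at least 7.55-fold lower at day 4, with the dim arrays held at the level, and 2.80-fold lower at day 7.

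The spindle checkpoint genes held both a large and the smallest change of the set. Bub1, a kinase at the kinetochore, had 8.46, 7.79 and 8.50 in untreated samples, 2.2995, 2.68 and 2.43 at day 4, and 5.86, 6.50 and 6.70 at day 7, and was at least 19.0-fold lower at day 4. Bub3, the protein that brings the BUB kinases to the kinetochore, had 10.62, 10.43 and 10.45 in untreated samples, 9.58, 9.55 and 9.68 at day 4, and 10.01, 9.95 and 9.97 at day 7. Its level stayed well above the detection level in all samples, and it was 1.86-fold lower at day 4 and 1.44-fold lower at day 7 than in untreated samples. Mad2l1, the checkpoint inhibitor of CDC20, had 9.32, 9.03 and 9.23 in untreated samples, 7.60, 7.64 and 7.58 at day 4, and 8.53, 8.61 and 8.70 at day 7. It was 3.01-fold lower at day 4 and 1.499-fold lower at day 7. Bub1b, whose product BUBR1 also restrains CDC20, was at least 12.9-fold lower at day 4 and 3.72-fold lower at day 7.

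Cdc20 and Ube2c, which turn on the APC/C and hand ubiquitin to its targets, fell and then were higher at day 7. Ube2c had 9.89, 9.63 and 9.59 in untreated samples, 3.48, 3.72 and 4.04 at day 4, and 7.99, 8.02 and 8.16 at day 7. Cdc20 had 10.17, 9.59 and 9.98 in untreated samples, 5.77, 6.40 and 5.93 at day 4, and 8.49, 8.40 and 8.47 at day 7. Cdc20 was detected on all 3 day 4 arrays and Ube2c on 1 of them. Cdc20 was 14.7-fold lower at day 4 than in untreated samples, and Ube2c, with its dim arrays held at the detection level, at least 51.6-fold lower. The fitted difference of Ube2c between day 7 and day 4 was 4.31 (SE 0.15), or 4.05 with the dim arrays held at the level. At day 7 the folds were 3.12 for Ube2c and 2.75 for Cdc20.

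Among the chromosomal passenger genes, Birc5 (survivin) had 9.69, 9.19 and 9.34 in untreated samples, 3.89, 4.30 and 3.83 at day 4, and 7.83, 7.76 and 8.05 at day 7. Detected on 1 of the 3 day 4 arrays, it was at least 39.5-fold lower at day 4 with the dim arrays held at the level, and 2.88-fold lower at day 7 than in untreated samples. Cdca8 (borealin), which joins survivin to the complex, was at least 20.3-fold lower at day 4 and 3.12-fold lower at day 7. Incenp, the scaffold of the complex, changed less at day 4, with means of 6.95 ± 0.22 at day 4 and 10.05 ± 0.57 in untreated samples (SD, n = 3 each), an 8.59-fold difference, and it was 3.79-fold lower at day 7.

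The centromere and kinetochore genes were mostly undetected at day 4, all but Spc25 of the 6 lying below the level on all 3 arrays. With day 4 held at that level their median log2 difference was -3.37, and at day 7 the median was -1.55. Cenpf, a large protein of the outer kinetochore, had 8.16, 7.16 and 7.89 in untreated samples, 2.57, 2.78 and 2.58 at day 4, and 5.56, 5.39 and 5.82 at day 7, and was 4.42-fold lower at day 7. Spc25, Ndc80 and Nuf2 encode subunits of the NDC80 complex, which grips microtubules. Spc25 had 8.80, 8.47 and 8.51 in untreated samples, 6.38, 6.51 and 6.44 at day 4, and 7.75, 7.65 and 8.02 at day 7. It was 4.45-fold lower at day 4 and 1.73-fold lower at day 7, and the groups did not overlap. Ndc80 was at least 4.04-fold lower and Nuf2 at least 12.7-fold lower at day 4, and at day 7 they were 2.10-fold and 3.32-fold lower. Cenpa, the histone that marks the centromere, was at least 21.0-fold lower at day 4, and Cenpe, a kinetochore motor, at least 8.42-fold.

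Of the spindle genes, Nusap1, which binds and bundles microtubules near chromosomes, had 9.17, 8.92 and 9.01 in untreated samples, 2.79, 3.78 and 3.28 at day 4, and 7.08, 7.23 and 7.60 at day 7. It was at least 32.7-fold lower at day 4, the largest of the 22 lower bounds. Hmmr, which also binds spindle microtubules, had 6.77, 6.66 and 6.64 in untreated samples, 3.18, 2.91 and 3.47 at day 4, and 6.16, 5.75 and 6.04 at day 7. It was only 1.63-fold lower at day 7 after a fall of at least 6.46-fold at day 4. Tpx2, the activator of aurora A, was at least 7.22-fold lower at day 4 and 2.03-fold lower at day 7, and Prc1, which bundles the midzone microtubules, at least 9.86-fold and 2.43-fold lower.

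Of the 5 kinesin motors, Kif11, Kif23 and Kif4 were below the detection level on all 3 day 4 arrays. With those 3 held at that level the median log2 difference was -3.61 at day 4, and it was -1.60 at day 7. Kif23, a motor of the central spindle, had 7.93, 6.95 and 7.94 in untreated samples, 2.27, 2.60 and 2.94 at day 4, and 5.36, 5.13 and 5.54 at day 7, at least 12.2-fold lower at day 4 and 4.81-fold lower at day 7. Kif11, which pushes the spindle poles apart, was at least 16.0-fold lower at day 4. Kif4 was at least 3.35-fold lower at day 4. Kif20a and Kif2c were above the detection level on 1 of the 3 day 4 arrays, with 3.15, 4.27 and 3.36 for Kif20a and 2.53, 4.12 and 2.82 for Kif2c, which shortens microtubules and had the widest spread of any member at that time. With the dim arrays held at the level, Kif20a was at least 6.41-fold lower at day 4 and Kif2c at least 13.4-fold. The cytokinesis genes Ect2, Anln and Racgap1, which position and drive the contractile ring, were at least 18.3-fold (2 of 3 day 4 arrays detected), 8.67-fold and 9.90-fold lower at day 4 and 2.999-fold, 2.70-fold and 2.70-fold lower at day 7.

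Members with several probe sets mostly moved together. Of the 89 probe sets, 59 passed the filter; 58 of these were lower at day 4 and 58 at day 7 than in untreated samples, and 52 were higher at day 7 than at day 4. The exception to the fall was a second probe set of Bub3, with 5.79, 5.96 and 5.12 in untreated samples, 5.65, 6.16 and 5.83 at day 4, and 5.75, 6.28 and 6.05 at day 7, whose groups overlapped (adjusted p 0.366 at day 4, limma). A second probe set of Top2a had 8.07, 5.56 and 8.31 in untreated samples, 4.97, 5.10 and 5.01 at day 4, and 5.14, 5.08 and 5.10 at day 7. It was lower at both times but did not separate day 7 from day 4 (0.08, adjusted p 0.938, limma), unlike the brighter Top2a probe set.

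Untreated replicate 2 was the lowest of the 3 untreated arrays for 34 of the 39 members, whereas that array was the lowest for 30.6% of all tested genes. The untreated group had the widest spread of the 3 groups, with an SD of the array mean of 0.34, against 0.11 at day 4 and 0.14 at day 7. With that array left out, all 39 members remained lower at both times.

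The promoters of the members were read because the members moved together. Late cell cycle genes are known to carry CCAAT boxes, bound by the factor NF-Y, and cell cycle homology regions (CHR elements; TTTGAA or TTCGAA), bound by the MuvB complexes. A RefSeq promoter on GRCm38.p6 was found for 33 of the 39 members, and the 250 bases before the transcription start were searched on both strands. None was found for Aurkb, Ccna2, Cdc25c, Incenp, Kif20a and Tpx2, so whether these hold the motifs is not known. A gene counted if any of its promoters held the match. CCAAT was present in 25 of the 33 (75.8%), against 40.1% of the 8842 tested genes with a promoter and 37.5% of all 27025 genes with a promoter. TTTGAA was present in 11 of the 33 (33.3%), against 12.8% of tested genes and 18.3% of all genes with a promoter, and TTCGAA in 2 (6.06%), against 2.17% and 1.55%. The E2F-type motifs TTTCCCGC and TTTGGCGC were in none of the 33, against 2.90% of tested genes with either. A match is a run of letters and does not show a bound site. The stretches below span the matches of the 5 members that hold CCAAT together with TTTGAA or TTCGAA among the 9 described on every array whatever their size of change, with CCAAT (or ATTGG on the other strand), TTTGAA (or TTCAAA) and TTCGAA in capitals, 5′ to 3′ on the gene's own strand. They lie at chr7:135716462-135716577 (minus strand, Mki67), chr11:99024197-99024426 (minus strand, Top2a), chr10:69352913-69353130 (minus strand, Cdk1), chr2:164769691-164769915 (plus strand, Ube2c) and chr4:118437344-118437406 (minus strand, Cdc20), all upstream of the annotated start.
Mki67: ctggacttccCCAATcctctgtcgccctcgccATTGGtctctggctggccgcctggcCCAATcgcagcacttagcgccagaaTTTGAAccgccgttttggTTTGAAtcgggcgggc
Top2a: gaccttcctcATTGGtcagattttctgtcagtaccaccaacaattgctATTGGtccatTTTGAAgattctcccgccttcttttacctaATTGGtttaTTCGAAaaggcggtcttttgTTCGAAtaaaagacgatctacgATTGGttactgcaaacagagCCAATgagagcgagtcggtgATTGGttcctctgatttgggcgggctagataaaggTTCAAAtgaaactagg
Cdk1: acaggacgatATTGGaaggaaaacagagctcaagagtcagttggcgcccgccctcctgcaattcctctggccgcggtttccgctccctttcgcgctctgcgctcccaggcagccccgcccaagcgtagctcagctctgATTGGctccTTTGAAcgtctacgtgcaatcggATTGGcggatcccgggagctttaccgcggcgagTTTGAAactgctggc
Ube2c: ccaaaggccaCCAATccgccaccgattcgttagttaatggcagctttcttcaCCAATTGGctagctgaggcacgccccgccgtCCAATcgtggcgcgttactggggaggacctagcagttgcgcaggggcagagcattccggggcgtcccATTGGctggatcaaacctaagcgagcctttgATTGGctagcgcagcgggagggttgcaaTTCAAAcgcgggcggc
Cdc20: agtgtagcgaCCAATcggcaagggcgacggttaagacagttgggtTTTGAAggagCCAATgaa
In Ube2c a CCAAT and an ATTGG overlap in the run CCAATTGG. Top2a held 6 CCAAT matches, 2 TTTGAA and 2 TTCGAA, and Mki67 held 3 CCAAT and 2 TTTGAA.

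The thymocyte genes fell at day 4 and were higher again at day 7, as the mitosis genes were. Cd3d had log2 values of 10.82, 10.66 and 10.54 in untreated samples, 3.93, 4.54 and 4.55 at day 4, and 8.68, 8.37 and 8.54 at day 7. Rag1 had 13.19, 12.91 and 13.27 in untreated samples, 2.76, 3.07 and 3.61 at day 4, and 10.19, 10.22 and 10.30 at day 7. Ptprc, the gene of CD45 itself, had 12.25, 11.96 and 12.45 in untreated samples, 4.18, 4.52 and 5.22 at day 4, and 9.63, 9.26 and 9.64 at day 7. All 3 genes stood far above the detection level in untreated samples and at day 7, in cells from which CD45 carriers had been removed. At day 4 Cd3d was 80.7-fold lower than in untreated samples, Rag1 at least 557-fold and Ptprc 191-fold. At day 7 Cd3d was 4.43-fold lower, Rag1 7.38-fold and Ptprc 6.55-fold.

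**Figure D3:**
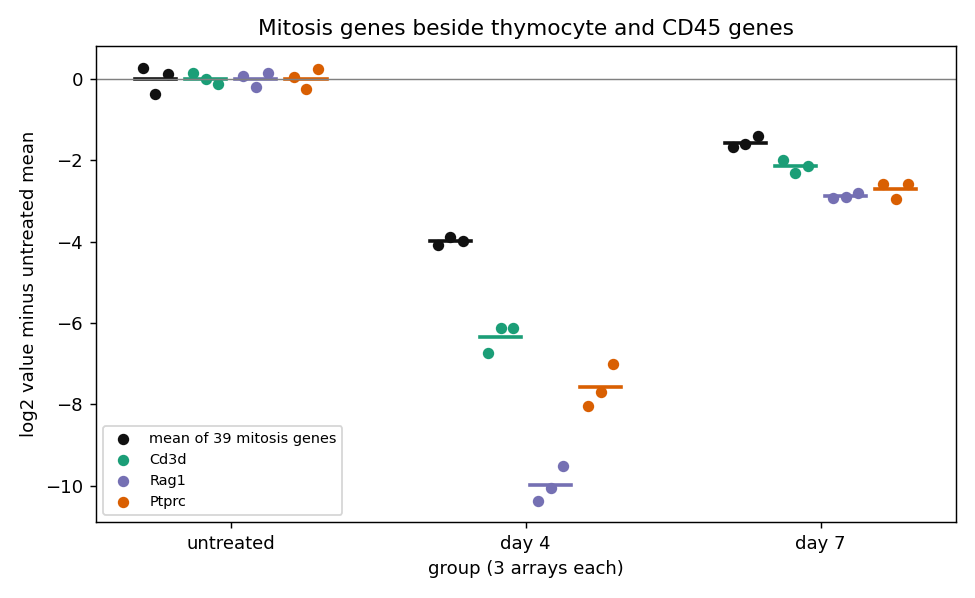
Change in log2 value from the untreated mean on each array for the mean of the 39 mitosis genes and for Cd3d, Rag1 and Ptprc. All 4 lie lowest at day 4 and between day 4 and untreated at day 7. In these values the mitosis mean has the smallest change and Rag1 the largest. Rag1 and 22 of the 39 mitosis genes lay below the detection level on all 3 day 4 arrays. The day 4 changes of Rag1 and of the mitosis mean are therefore lower bounds.

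Set against the mean of Cd3d and Rag1 on the same array, most mitosis genes stood higher at day 7 than in untreated samples, as nearly all genes did. Of the 39 members, 32 were higher at day 7 than in untreated samples relative to that mean (limma after centring each array on it) and 7 did not pass, but so were 96.8% of all tested genes. The members' median was 0.91, against 2.60 over all tested genes, so the typical member lay between the thymocyte genes and the typical gene. The 7 that did not pass were Mki67 (0.44), Cdc25c (0.46), Cenpf (0.37), Aurka (0.36), Aurkb (0.32), Kif23 (0.25) and Ttk (0.14). The members with the largest relative values were Bub3 (1.99), Mad2l1 (1.93) and Hmmr (1.81). The count rests on the choice of reference, since 18 of 39 passed against Cd3d alone and 38 of 39 against Rag1 alone.

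At day 4 Rag1 and 22 members lay below the detection level. For those 22 the size and sign of the relative value are not known. For the other 17 members and the other tested genes the size is not known either, because Rag1 is part of the reference. In the fitted values all 39 members were higher than untreated relative to Cd3d and Rag1, as were 100% of tested genes to 3 digits. The fitted medians were 4.07 for the members and 8.35 over all tested genes. Between day 7 and day 4 the fitted values of all 39 were lower at day 7 relative to the reference, again with 100% of tested genes. The medians were -3.22 and -5.74, with the same limits for the 22 and for the other genes. Side by side on their own scale, Mki67 fell by 6.20 and Cd3d by 6.33 at day 4, and by 2.07 and 2.15 at day 7. Bub3 fell by 0.90 at day 4 and by 0.52 at day 7.

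The wider list of thymocyte genes moved the same way. Of 20 listed, 18 were tested, all 18 were lower at day 4 (median -5.81) and at day 7 (median -2.66), and 15 were higher at day 7 than at day 4 (median 3.30). At day 4, 12 of them were below the detection level, among them Rag1, the co-receptor gene Cd8b1, the receptor signalling gene Cd247 and the thymus homing receptor gene Ccr9. The log2 of their summed signal was 14.52 to 14.89 in untreated samples, 7.90 to 8.23 at day 4 and 11.997 to 12.12 at day 7. All 8 pan-leukocyte genes were lower at both times, with log2 sums of 13.79 to 14.05, 11.09 to 11.32 and 11.79 to 11.94 in untreated, day 4 and day 7 samples. Of the 8 erythroid genes listed 3 were tested, Tfrc, Alas2 and Slc4a1, and all 3 were lower at day 4 (median -3.38) and higher at day 7 than at day 4 (median 2.14). Their list's log2 sums were 9.82 to 11.27 in untreated samples, 6.33 to 6.62 at day 4 and 7.66 to 7.83 at day 7. The part of any of these cells in the mitosis result was not tested.

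Markers of stromal cell types, which the sample labels do not name, were detected in all 3 groups. The endothelial list was dim in untreated samples, with array means of 4.23 to 6.08, against 7.49 to 7.71 at day 7. All 13 thymic epithelium markers were detected in untreated samples, and their log2 sum was 15.20 to 15.33 in untreated samples, 15.69 to 15.80 at day 4 and 15.74 to 15.79 at day 7. Of the 13, 8 were higher and 1 lower at day 4, and 8 were higher and 3 lower at day 7, when 1 was below the detection level. Of 6 pericyte and smooth muscle markers tested, 3 were lower and 2 higher at day 4 (median -0.62). All 10 fibroblast markers were higher at day 4 than in untreated samples (median 1.33), and all 9 endothelial markers tested were higher at day 7 (median 2.72). With arrays centred on the epithelium markers all 39 mitosis genes remained lower at both times, with medians of -4.47 at day 4 and -1.72 at day 7. The signal difference between the 3′ and 5′ control probe sets of Actb, a sign of RNA integrity, was 3.13 ± 0.17 at day 4 and 2.51 ± 0.21 at day 7, against 2.28 ± 0.15 in untreated samples (log2, SD, n = 3 each). Its part in the day 4 values was not tested.

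Other mitotic genes outside the set of 40 mostly followed it. Of 57 listed, 38 were tested, and 35 were lower and 2 higher at day 4 (median -2.84), against 21.4% and 41.8% of all tested genes. At day 7, 33 were lower and 1 higher than in untreated samples (median -1.38), against 22.0% and 32.1%. Between day 7 and day 4, 28 were higher and 1 lower at day 7 (median 1.24), against 9.78% and 17.6%. Some of the 38, among them Dlgap5, Kif18b and Cenpi, passed the filter only through the untreated group, so the filter favoured a lower call for them. Pbk, a kinase gene of dividing cells, was 24.1-fold lower at day 4, Cdca5, the gene of the cohesin protector sororin, at least 21.9-fold, Aspm, a spindle pole gene, at least 13.7-fold, and Spc24, the partner of Spc25, at least 5.12-fold. Pttg1, the gene of securin, which holds back chromosome separation, went against them, with differences of 0.57 at day 4 against untreated (adjusted p 7.9e-04, limma) and -0.51 at day 7 against day 4 (adjusted p 0.0060, limma). Zwint, a kinetochore gene, was higher at day 4 by 0.41 and at day 7 by 0.80 than in untreated samples. The Pttg1 call at day 4 did not pass with arrays centred on the epithelium markers (0.19) or on 4 stromal lists (0.0024). Zwint did not keep its direction: at day 4 it was -0.09 as the mean of its probe sets and -0.16 with the stromal centring. At day 7 it was 0.12 (adjusted p 0.21, limma) as the mean of its probe sets and -0.45 with the stromal centring. The stromal centring shifted every gene's difference from untreated by -0.57 at day 4 and by -1.25 at day 7. The epithelium centring shifted it by -0.38 at day 4.

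**Figure D4:**
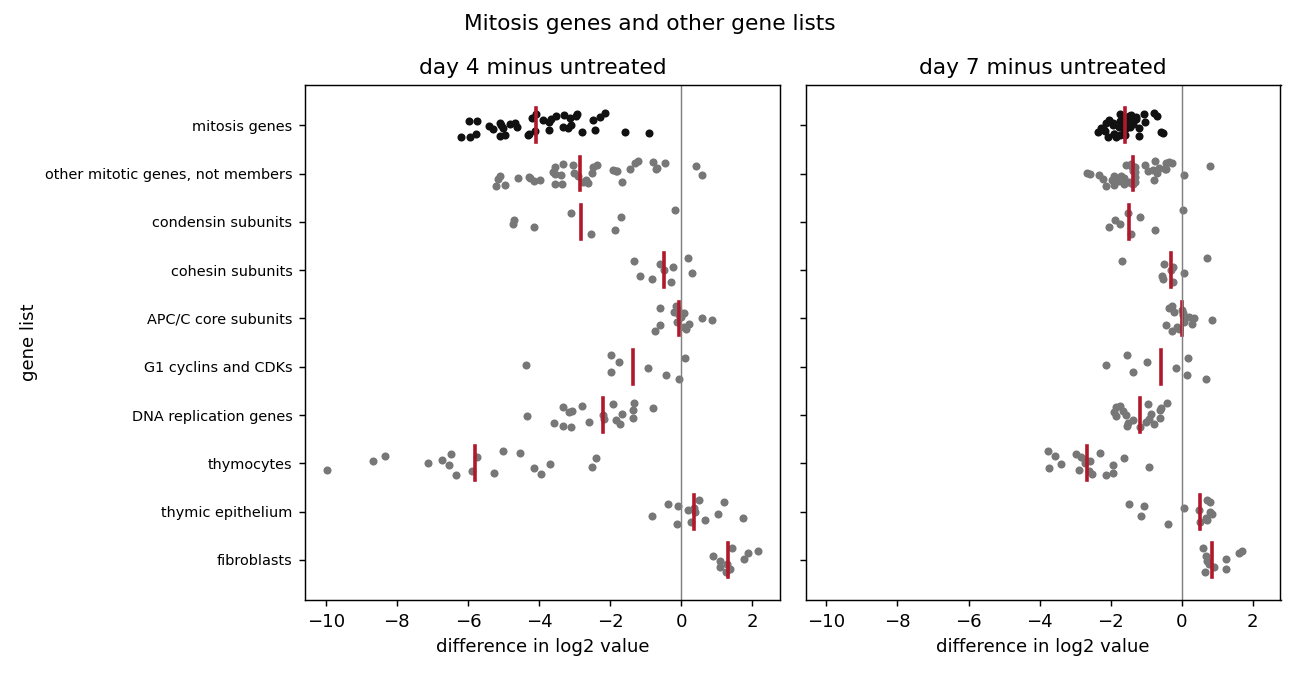
Difference in log2 value of each tested gene at day 4 against untreated and at day 7 against untreated (panels), by gene list, with the median of each list as a red bar. The mitosis genes and the other mitotic genes lie mostly below 0, with medians of -4.09 and -2.84 at day 4, while the core subunits of the APC/C lie around 0, with a median of -0.05.

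Complexes that act in mitosis did not all share the change. Of the 8 condensin subunits, which compact chromosomes, 7 were lower at day 4 (median -2.83) and 7 at day 7 (median -1.47), and 6 were higher at day 7 than at day 4. Ncapg was at least 12.4-fold lower at day 4, Ncapd2 17.6-fold, Ncapg2 8.63-fold and Smc2 5.84-fold, while Ncaph2, a subunit of condensin II, had a difference of -0.17 (adjusted p 0.11, limma). Of the 9 genes of cohesin, the ring that holds sister chromatids, and its regulators, 6 were lower at day 4 with a median of -0.48, led by Rad21 (-1.16) and Smc3 (-0.81), and 5 were lower and 1, Pds5b (0.70), higher at day 7. Of the 15 core subunits of the APC/C, 3 were lower and 3 higher at day 4 (median -0.05), and 2 were lower and 2 higher at day 7. Anapc1 (-0.73), Anapc5 (-0.60) and Cdc27 (-0.58) were the lower ones at day 4, and Anapc11 (0.87), Anapc13 (0.58) and Anapc7 (0.23) the higher ones. With arrays centred on the epithelium markers 9 of the 15 were lower and 1 higher at day 4, so the directions in this list depend on the scaling. Pds5b at day 7 likewise turned to -0.55 with arrays centred on 4 stromal lists, which shifted every gene's day 7 difference by -1.25.

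DNA replication genes, which act earlier in the cycle, changed in the same directions by smaller amounts. All 19 tested were lower at day 4 (median -2.20) and at day 7 (median -1.17), and 18 were higher at day 7 than at day 4 (median 1.07). The helicase genes Mcm5 and Mcm2 were 11.98-fold and 8.60-fold lower at day 4, Pcna, the sliding clamp of the polymerases, 4.54-fold, and Cdc45, which activates the helicase, at least 2.16-fold. Of the 8 genes of G1 cyclins and their kinases 6 were lower at day 4 (median -1.35) and 4 at day 7. Ccne2 was at least 12.4-fold lower at day 4, Cdk6 3.93-fold, Ccnd3 3.90-fold and Cdk2 3.37-fold. Ccnd1, the cyclin D1 gene, was higher by 0.70 at day 7 than in untreated samples. Centring on 4 stromal lists shifted every gene's day 7 difference by -1.25 and took that of Ccnd1 to -0.55. The change of sign is therefore not particular to Ccnd1. Of the 10 genes of transcription factors of late cell cycle genes, 8 were tested and 6 were lower at day 4 (median -0.61), led by Nfyb, a subunit of NF-Y (2.83-fold lower), Lin52 (at least 1.58-fold), Lin9 (3.99-fold) and Rbbp4 (1.42-fold), and Foxm1 and Mybl2 were below the detection level in all 9 samples.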

How the data were processed

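Per the submitters' processing notes the arrays were normalized with GCRMA, and the authors deposited 1 table of log2 expression values (the log base was read from the values) for 45101 probe sets on 9 arrays, background-corrected and normalized together by them. GCRMA gives dim probe sets a common lowest value (2.27, held by 26.1% to 27.2% of probe sets on each array), so falls toward it are bounded. The number of arrays, not read depth, limits the precision.

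Probe sets were named from GEO's platform annotation: 34945 had 1 symbol, 932 several and 9160 none, 64 were controls, and 34741 of those with 1 symbol matched RefSeq. Each gene was represented by its probe set with the highest mean. Genes that reached 4 on the log2 scale in 3 or more of the 9 arrays were kept (10937 of 18193). limma 3.58.1 in R 4.3.3 (lmFit and eBayes) was fitted to all 9 arrays with 3 groups, and p-values were adjusted over all kept genes, with a threshold of 0.05. Where a group lay below 4 on all 3 arrays, folds were computed with it held at 4 and are given as "at least". For the relative values each array was centred on its mean of Cd3d and Rag1 before the same fit, so the spread of those 2 genes enters every gene's error. The fit was tested on simulated data drawn without a common lowest value, so that test does not cover dim signal. Replicate numbers did not pair the samples: deviations of same-numbered samples correlated at -0.12 to 0.18, against -0.29 to 0.21 for other pairs. Whether a group's samples were separate experiments is not stated, so p-values measure the spread between these samples.

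Alternatives were other filters, probe set rules, scalings, references, array weights, an intensity trend, a replicate block and leaving out each array. The genes, gene lists and rules for naming were chosen with earlier results of these data known. Named were 9 members chosen by symbol, the members with the 6 largest and 4 smallest differences of each comparison, and of other lists up to 4 genes with the smallest adjusted p and any that went against the list. No scanner files were used here.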

Additional observations from a re-analysis of the deposited data

Results flagged for a closer look

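For 37 mitosis genes the difference from untreated samples was not the same at day 7 as at day 4, by limma's test of day 7 against day 4 (adjusted p under 0.05 over all tested genes). The 2 that did not pass were Plk1 and Ttk. Over all tested genes 9.78% were called higher and 17.6% lower at day 7 than at day 4. Each value is the fitted log2 difference of day 7 over day 4. For 19 of the 37 all 3 day 4 arrays, but not all day 7 arrays, lay below the detection level. Their fitted value rests on day 4 signal not above background. With day 4 held at that level, the differences of those 19 ran from 0.11 for Aurkb, 0.20 for Nek2, 0.29 for Kif4 and 0.34 for Aurka to 3.30 for Nusap1 and 3.51 for Ccnb2. Another 6 were detected on 1 or 2 day 4 arrays, and with the dim arrays held at the level Kif2c had 1.99, Kif20a 1.47, Birc5 3.78, Ube2c 4.05, Ect2 2.61 and Melk 1.43. Among the spindle checkpoint genes it was 3.88 for Bub1, 2.38 for Bub1b, 1.004 for Mad2l1 and 0.38 for Bub3. CDK1, its cyclins and its phosphatase had differences of 3.87 for Ccnb2, 3.35 for Ccna2, 2.60 for Cdk1 and 0.43 for Cdc25c. Among the kinases it was 1.95 for Aurka, 1.53 for Aurkb, 1.47 for Melk and 1.01 for Nek2. The chromosomal passenger genes had differences of 3.87 for Birc5, 3.41 for Cdca8 and 1.18 for Incenp. Among the centromere and kinetochore genes it was 3.45 for Cenpa, 2.95 for Cenpf, 2.74 for Cenpe, 2.35 for Nuf2, 1.86 for Ndc80 and 1.36 for Spc25. The cytokinesis genes had differences of 2.62 for Ect2, 1.87 for Racgap1 and 1.68 for Anln. Among the kinesins it was 3.68 for Kif11, 2.87 for Kif2c, 2.74 for Kif23, 1.97 for Kif20a and 1.87 for Kif4. The spindle assembly genes had differences of 4.02 for Nusap1, 2.80 for Hmmr, 2.70 for Tpx2 and 2.37 for Prc1. Among the APC/C activator and its E2 it was 4.31 for Ube2c and 2.42 for Cdc20. The chromosome genes had differences of 4.13 for Mki67 and 4.11 for Top2a. The values of Cdc25c lay below the detection level in both groups, and its adjusted p of 0.047 did not hold in 7 of the 9 fits that left out 1 array. Bub3 did not pass (0.10, adjusted p 0.60) as the mean of its probe sets. No cause of these differences was tested.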

How the results depend on the processing

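Against untreated, every tested member stayed lower at both times under all 20 level alternatives, apart from 1 probe set when each was tested by itself (58 of 59). With a detection level of 6, 31 members were tested, and with the mean of all probe sets 34. Between day 7 and day 4, 31 to 38 genes passed, or 52 of 59 probe sets. The median at day 4 against untreated was -2.95 when a gene's probe sets were averaged, -3.51 over every probe set, -4.36 with array weights, -4.47 with arrays centred on the epithelium markers and -4.66 with arrays centred on 4 stromal lists. It was -2.85 at day 7 against untreated with the stromal centring. Between day 7 and day 4 it was 2.74 with the detection level of 6, 1.75 with the mean of all probe sets, 1.95 over every probe set, 2.69 with the epithelium centring and 1.75 with the stromal centring, under which Bub3 (-0.30), Ttk (-0.26) and Cdc25c (-0.24) turned. That centring shifted the all-gene median by -0.57 at day 4 and -1.25 at day 7 relative to untreated and by -0.67 between the times, and the epithelium centring by -0.38, -0.12 and 0.27. Of all tested genes 4574 were higher and 2342 lower at day 4, against 2179 and 3888 with the epithelium centring and 1240 and 4297 with the stromal one. At day 7 against untreated 3509 were higher and 2406 lower, and 2329 and 2424 with the epithelium centring. With the stromal centring 179 were higher and 9320 lower at day 7, so lower calls there were not particular to members.

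Relative to thymocyte genes, the median at day 4 against untreated was 2.25 with Cd3d alone, 5.89 with Rag1 alone, 1.66 with the thymocyte list, 3.49 with Ptprc alone and 5.21 with the mean of all probe sets. It was, at day 7 against untreated, 0.55 with Cd3d alone (18 higher), 1.28 with Rag1 alone, 1.11 with Ptprc alone and 1.15 with the mean of all probe sets. Between day 7 and day 4 it was -1.77, -4.67, -0.70, -2.45 and -3.89 with Cd3d alone, Rag1 alone, the thymocyte list, Ptprc alone and the mean of all probe sets. With the thymocyte list 1 member was lower at day 4 against untreated, and 22 were lower and 8 higher at day 7 against day 4. The sizes that involve day 4 are limited by members and reference genes below the detection level.

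Leaving out 1 array at a time, the day 7 against day 4 median ran from 2.38 to 2.60 and its count from 34 to 38, and its relative median from -3.43 to -2.95. Cdc25c was lost in 7 of these 9 fits and Nek2 in 5 (adjusted p 0.074 to 0.10), Bub3 was lost without day 4 replicate 2 (0.051) and, with all arrays, as the mean of its probe sets (0.10, adjusted p 0.60), and Plk1 passed without untreated replicate 1 (0.0068) or 2 (0.033). With a replicate block, although the numbers do not pair the samples and not every sample correlated best with its own number, 39, 39 and 36 members passed (Cdc25c was lost, 0.060). The causes of these changes were not tested. Signal near the lowest value limits what can be said of the 22 genes undetected at day 4.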

Other observations

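Genes of the E2F family and its pocket proteins, which set the timing of DNA synthesis genes, were lower at day 4 in 6 of 11 tested (median -0.53) and at day 7 in 7, with 1 higher. E2f2 was at least 33.1-fold lower at day 4 than in untreated samples, E2f8 11.3-fold, E2f7 at least 3.73-fold and Tfdp1, the partner of the E2F proteins, 2.85-fold. E2f6, a repressor of the family, was higher at day 7 by 0.60 (adjusted p 0.0090, limma). Centring on 4 stromal lists shifted every gene's day 7 difference by -1.25 and took that of E2f6 to -0.65. Of 8 genes that switch CDK1 on or off at the entry into mitosis, 4 were lower at day 4 (median -0.45): Cdc25b (at least 3.37-fold), Cdc25a (3.35-fold), Wee1 (1.76-fold) and Pkmyt1 (1.61-fold). At day 7 3 of them were lower than in untreated samples, Cdc25b (2.80-fold), Cdc25a (2.56-fold) and Wee1 (log2 difference -0.58).

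The tested markers of early thymocyte progenitors did not share 1 direction at day 4. Of 8 listed, 4 were tested, and at day 4 Hes1, a Notch target, was 2.28-fold higher and Cd34 1.85-fold higher than in untreated samples, while Il7r, the receptor of interleukin 7, was at least 1.69-fold lower and Notch1 had a difference of 0.26 (adjusted p 0.31, limma). Hes1 and Cd34 are also expressed by stromal and endothelial cells.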
